A study of Gallus gallus with 30 samples.

Results

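Described here are 100 of 28756 chicken transcripts, those whose level in the untransfected left otocyst was most above its later level when embryonic day 2.5 was set against embryonic day 3. Levels are in TPM, the usual unit of transcript abundance scaled for transcript length and library size. For each transcript B is the mean of the 3 left otocysts collected at day 2.5, and A is the higher of the 2 means of the left otocysts collected at day 3. Transcripts were ranked by log2((B + 1)/(A + 1)), among the 9920 with B of at least 5 TPM and a mean above 0.5 times A in otocysts cultured for 24 h in DMSO. The members were thus chosen by their values in these left libraries, and those values are given below as a description with no test. The last members inside the limit scored 0.682 and 0.680 and the next transcripts outside it 0.680 and 0.668, so the limit falls in a continuous range.

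The otocyst is the epithelial vesicle that forms from the otic placode and gives rise to the inner ear. Between these stages its wall is being patterned, and neuroblasts leave it to form the ganglion that will innervate the ear. Notch signalling restrains neuroblast formation by lateral inhibition: a receptor that meets its ligand is cut by γ-secretase, and the freed intracellular domain switches on HES genes, which repress proneural genes.

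The 30 libraries came from single otocysts of 15 White Leghorn embryos, 3 embryos in each set, and every embryo gave a right and a left otocyst. In 9 embryos the right otic placode was electroporated in ovo at day 2 with a pCAB plasmid, either for NICD1 (the intracellular domain of NOTCH1) together with mRFP1 through an IRES (Notch GOF) or for mRFP1 alone (control EP). NICD1 otocysts were collected 6 h or 24 h later and mRFP1 otocysts 24 h later, at stages labelled day 2.5 and day 3. The left otocysts of these embryos carried no plasmid. In the other 6 embryos both otocysts were explanted at day 2.5 and cultured for 6 h or 24 h, the right one in 10 µM of the γ-secretase inhibitor LY411575 (Notch LOF) and the left one in DMSO. For 4 of the 6 inhibitor otocysts the label gives the name with a different last digit, and they were taken as LY411575. Treatment was always on the right, so side and treatment cannot be told apart. The mesenchyme around the otocysts was removed at dissection. Transfection is mosaic, only strongly transfected ears were sequenced, no mRFP1 group at 6 h is analysed here, and a whole otocyst was sequenced, so fewer cells of a type and less RNA per cell cannot be told apart either.

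Libraries held 8749489 to 18224622 estimated counts. All 8 transcripts of the otic epithelium list (among them LMX1A, SOHO-1 and SOX10) were above 0 TPM in all 30 libraries. So were the 6 transcripts counted for the mesenchyme list (COL1A2, COL5A2, MMP2, SCX, DCN and LUM) and all 5 of the muscle list. The mesenchyme list names 9 symbols, and ENG, NT5E and THY1 are not among the transcripts counted, so its levels rest on a part of it. The summed mesenchyme level was 359 to 406 TPM in the left otocysts of day 2.5 and 481 to 654 TPM in those of day 3, and 373 to 688 TPM in the right NICD1 otocysts of 6 h against 229 to 694 TPM in the right otocysts of day 3. The left ranges do not overlap while the right ones do, and the part of other cells in the results was not tested.

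The members were mostly transcripts of modest level, and their differences were modest too. The median B was 12.15 TPM (range 5.13 to 207.5), against 26.7 TPM over the 9920 transcripts that met the level conditions, and 41 members lay under 10 TPM. The median score was 0.85, a 1.80-fold difference, and 30 members scored above 1. The members had a median length of 1740.5 bases against 2146 bases, and 81 of them shared reads with another transcript in at least 1 library, against 61.6% of the 9920. In such transcripts a shift of reads between isoforms and a change of the gene cannot be told apart. 3 members of 249 bases had the same value in all 30 libraries and amount to 1 measurement.

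The study's tables of differentially expressed genes pair 13 of the 100 identifiers with a gene symbol or a human homologue, for 12 genes. These genes were called by the study on these otocysts or on a related Wnt experiment, so they are not a neutral sample of the 100. They comprise a secreted modulator of Wnt signalling (SFRP2), other secreted proteins (FSTL4, ADAMTSL1), a growth arrest and stress response gene that is also switched on in newly forming neurons of vertebrate embryos (GADD45G, with 2 transcripts), a pro-apoptotic BH3-only protein (BMF), membrane proteins (CLCA2, SLC6A6, ADRA2A, TTYH3), lipid genes (SPTSSB, ESYT3) and a formin (FHDC1, named by its human homologue). The other 87 are known here by identifier only.

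In the left otocysts, where the members were chosen, all 3 libraries of day 2.5 lay above all 6 libraries of day 3 for 34 of the 100 transcripts. For the other 66 at least 1 pair of libraries overlapped. The choice of members favours such separation and its share over all transcripts was not counted, so the 34 are a description only. In 37 members the highest of the 3 libraries of day 2.5 was over 3 times the lowest, against 2.97% of the 9920 transcripts. These libraries chose the members, and 1 high library raises B, so the choice favours such a spread. This contrast and the counts by embryo that follow are thus a description only. Embryo 15 gave the highest value in 55 members, embryo 13 in 27 and embryo 12 in 18. Among all 11729 transcripts with B of at least 5 TPM, embryo 15 was highest in 44.7%, embryo 13 in 20.4% and embryo 12 in 34.9%. Choosing again without embryo 15 kept 58 of the 100 members, and requiring the lowest library of day 2.5 to exceed the highest of day 3 most strongly kept 18.

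**Figure D1:**
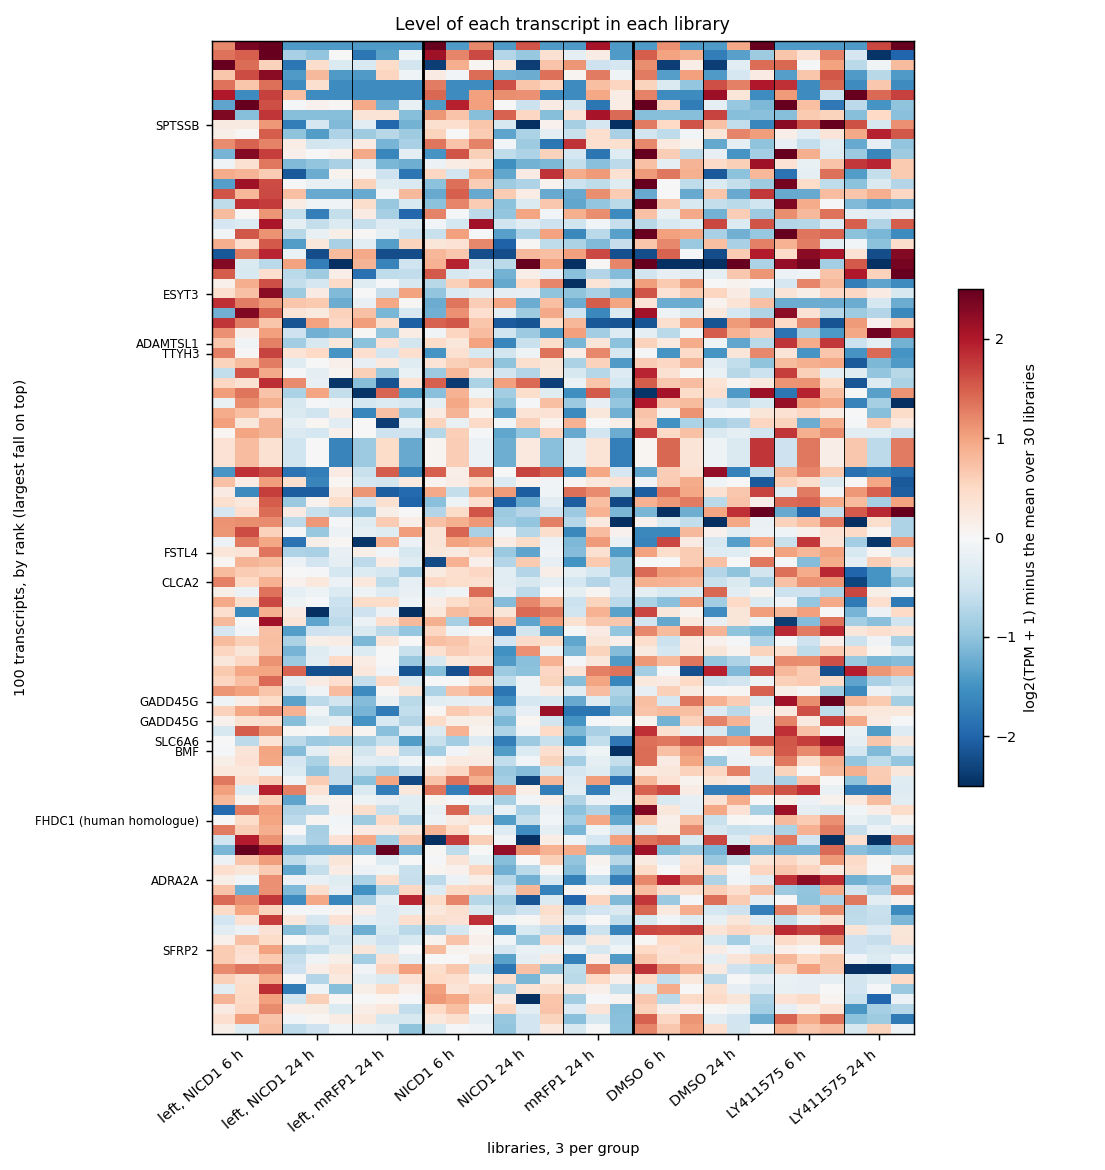
Level of the 100 members (rows, by rank) in the 30 libraries (columns, 3 per group), as log2(TPM + 1) minus the row mean over all 30 libraries; red is above and blue below that mean, and thick lines part left in ovo, right in ovo and cultured otocysts. The left day 2.5 columns are mostly red by the choice of members; in culture rows differ, some being red in all columns and others in the 6 h columns alone.

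Some members varied strongly between embryos of 1 stage. A group of 7 members was linked by pairs with a correlation of log2(TPM + 1) above 0.9 over the 30 libraries (a description; left and right libraries share embryos), where the median over all member pairs was 0.22. All 7 shared reads with another transcript in all 30 libraries, as did 41 of the 100 members. Whether they share reads with one another was not tested, so they may amount to fewer than 7 separate measurements. Their summed level was 58.5 TPM in the left otocyst of embryo 12, 546 TPM in that of embryo 13 and 372 TPM in that of embryo 15. The right otocysts of the same embryos showed the same order, with 52.1, 321 and 178.5 TPM. Day 3 in ovo libraries of both sides lay between 45.1 and 195 TPM. In culture, embryo 1 stood at 811 TPM in DMSO and 707 TPM in LY411575, while all other cultured otocysts were at 209 TPM or below. Both otocysts of embryos 13 and 1 and the left one of embryo 15 thus lay above the range of day 3, while the right one of embryo 15 and both of embryo 12 lay within it. The LY411575 otocyst of embryo 3, at 209 TPM, also lay above that range. All otocysts above it were 6 h otocysts, in ovo or cultured, and the 24 h cultures had 46.2 to 98.0 TPM. The parts of embryo and stage in these levels were not tested.

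The first question was whether the fall was also present in the electroporated right otocysts, which the rule did not use. At both stages they come from the same embryos as the left otocysts that chose the members. They are thus not independent of the choice. Most members had lower values at day 3 here too, but none passed the test. From NICD1 6 h to NICD1 24 h the fold change was negative for 86 of 100 members, against 48.8% of all 20326 transcripts tested, with a median log2 fold change of -0.52 against 0.01. From NICD1 6 h to mRFP1 24 h it was negative for 80 of 100, against 50.4%, with a median of -0.62 against -0.01. In both comparisons 0 members and 0% of all transcripts were called (edgeR quasi-likelihood test on 3 against 3 otocysts, adjusted p below 0.05). At an unadjusted p below 0.05, 14 members were lower in the former, against 1.44% of all transcripts, and 0 were higher, against 1.76%. In the latter 12 were lower, against 2.59%, and 0 were higher, against 3.33%. The 3 otocysts of NICD1 24 h were all below those of NICD1 6 h for 21 members, against 4.69% of all transcripts, and all above for 1, against 3.02%. For mRFP1 24 h these numbers were 25, against 8.37%, and 0, against 2.15%. DESeq2 called 2 members lower with NICD1 24 h, against 0.174% of all transcripts, and 0 with mRFP1 24 h, against 0.154%, and limma-voom called 0 in both. The 2 comparisons share their 6 h libraries and are not separate evidence. In both, stage and hours after electroporation cannot be told apart. With mRFP1 24 h the plasmid differs as well.

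All 6 right otocysts of day 3 lay below all 3 right NICD1 otocysts of 6 h for 14 of the 100 members, against 1.66% of all transcripts tested. Among those 14 were SPTSSB, CLCA2, SFRP2 and both transcripts of GADD45G. The day 2.5 values themselves were lower on the right side: relative to the left otocysts of the same embryos, which chose the members, NICD1 otocysts had a negative fold change at 6 h for 80 of 100 members, against 53.6% of all transcripts, with a median of -0.45. At 24 h the side differences centred near 0, with a median of 0.07 for NICD1 and 0.02 for mRFP1. These 3 values rest on the libraries of the rule and carry no test. Over the members, the median of the mean level was 12.15 TPM in the left otocysts of day 2.5 and 9.05 TPM in the right ones. It was 5.275 and 6.09 TPM on the left and right of the NICD1 24 h embryos, and 5.08 and 5.89 TPM on the left and right of the mRFP1 embryos. Other genes differed too: the glycolysis and hypoxia list summed to 1711 to 2071 TPM in NICD1 6 h and 2986 to 3674 TPM on its left. The otic epithelium list had 787 to 1027 against 1045 to 1216 TPM. Apart from the early embryonic and FGF list, also lower, the other lists overlapped. The part of this in the results was not tested.

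NICD1 was then compared with the control plasmid at 24 h. Of the 100 members 55 had a negative fold change with NICD1, against 49.3% of all transcripts (40 without the mRFP1 otocyst of embryo 23 and 65 without the NICD1 otocyst of embryo 22), the median log2 fold change was -0.04 against 0.00, and 0 members were called, with 0% of all transcripts (edgeR; 0 members by limma-voom and by DESeq2). At an unadjusted p below 0.05, 3 members were lower and 1 was higher, against 1.79% and 2.27% of all transcripts. The groups were lower without overlap in 2 members, against 1.7%, and higher without overlap in 2, against 4.47%. No member can therefore be said to differ between the plasmids, which does not show that they are alike.

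**Figure D2:**
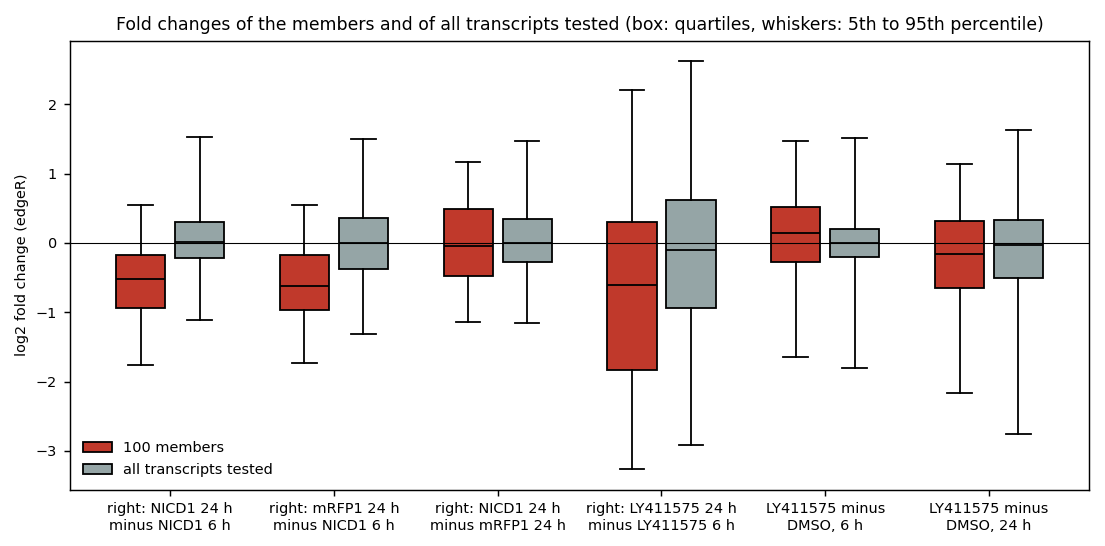
Log2 fold changes of the 100 members (red) and of all transcripts tested (grey) in 6 comparisons; the line is the median, the box spans the quartiles and whiskers the 5th to 95th percentile. The members' medians are -0.52 for NICD1 24 h and -0.62 for mRFP1 24 h, each against NICD1 6 h in right otocysts. They are -0.61 between the inhibitor cultures, and lie near 0 for NICD1 against mRFP1 and for LY411575 against DMSO.

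CLCA2, which encodes a protein of the calcium-activated chloride channel regulator family, was high in every in ovo otocyst of day 2.5. The left otocysts of day 2.5 had 166, 96.8 and 126 TPM, those of NICD1 24 h embryos 73.7, 83.1 and 61.6 TPM and those of mRFP1 embryos 82.8, 43.9 and 57.7 TPM. On the right, levels were 98.8, 93.8 and 90.3 TPM in NICD1 6 h, 57.2, 51.5 and 57.4 TPM in NICD1 24 h, and 50.3, 40.9 and 48.4 TPM in mRFP1 24 h. Neither side had an overlap between the stages. The right log2 fold change was -0.73 ± 0.27 (SE) to NICD1 24 h and -0.80 ± 0.27 to mRFP1 24 h, without passing after adjustment (edgeR adjusted p = 1 and 0.744).

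SFRP2 encodes a secreted protein that binds Wnt ligands. It was the most abundant named member in the left otocysts of day 2.5, with 171, 148 and 221 TPM, against 64.6, 71.4 and 89.4 TPM in left otocysts of NICD1 24 h embryos and 135, 86.9 and 109.6 TPM in those of mRFP1 embryos. The right NICD1 otocysts of 6 h had 191, 118 and 112 TPM, and the 6 right otocysts of day 3 lay between 82.0 and 103 TPM. The groups did not overlap, but embryo 12 stood apart: the log2 fold change to NICD1 24 h was -0.59 ± 0.24 (SE; edgeR adjusted p = 1), and between -0.19 and -0.74 when single otocysts were left out. The value of -0.19 came without embryo 12.

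SPTSSB, a small subunit of serine palmitoyltransferase, the enzyme that starts sphingolipid synthesis, had the highest score of the named members, 1.56. Its left levels were 14.2, 14.2 and 26.8 TPM at day 2.5 and 2.33 to 9.72 TPM in the 6 otocysts of day 3. On the right they were 16.2, 16.4 and 20.02 TPM in NICD1 6 h, 8.88, 1.30 and 13.0 TPM in NICD1 24 h and 6.31, 8.69 and 0.456 TPM in mRFP1 24 h. The stages did not overlap on either side, and neither day 3 group passed the test against NICD1 6 h.

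The 2 transcripts of GADD45G were separate on both sides. ENSGALT00000045592.3, of 1141 bases, had 129, 158 and 159 TPM in left otocysts of day 2.5 and 42.6 to 105 TPM at day 3. On the right it had 167, 134 and 133 TPM in NICD1 6 h and 42.9 to 124 TPM in the 6 otocysts of day 3. ENSGALT00000094271.1, of 1480 bases, had 22.8, 28.0 and 34.6 TPM on the left at day 2.5 and 9.22 to 21.8 TPM at day 3. Its right levels were 20.03, 20.6 and 21.3 TPM in NICD1 6 h and 7.76 to 19.8 TPM at day 3, so that the gap was small. Neither passed the test on the right. Both transcripts shared reads with others in 29 or more libraries, so that the split of the gene's reads between them is uncertain.

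Among the other secreted proteins, FSTL4, of the follistatin-like family, had 12.1, 12.6 and 25.9 TPM on the left at day 2.5 and 5.07 to 10.8 TPM at day 3. On the right it had 12.1, 11.6 and 13.8 TPM in NICD1 6 h and 4.61, 3.32 and 9.11 TPM in NICD1 24 h, a log2 fold change of -1.12 ± 0.41 (SE; edgeR adjusted p = 1). The mRFP1 otocyst of embryo 23 overlapped the earlier stage with 12.8 TPM, while the other 2 had 4.02 and 3.05 TPM. ADAMTSL1, a matrix glycoprotein related to the ADAMTS proteases but without their catalytic domain, had 9.56, 5.20 and 14.8 TPM on the left at day 2.5 and 2.25 to 7.47 TPM at day 3. On the right its 6 h range of 6.96 to 12.1 TPM overlapped that of day 3, 1.13 to 7.90 TPM.

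Not every named member separated the stages on the right side. ESYT3, an extended synaptotagmin that tethers the endoplasmic reticulum to the plasma membrane, had 4.52, 5.83 and 18.7 TPM in left otocysts of day 2.5, where embryo 15 gave 64.3% of the sum. In the right otocysts of the same embryos it had between 1.08 and 2.46 TPM, and NICD1 24 h had 2.47, 2.57 and 1.04 TPM, so that these groups overlapped. The mRFP1 24 h otocysts had 1.05, 1.36 and 0.821 TPM, which also overlapped NICD1 6 h but with a lower mean. TTYH3, of the tweety family of membrane proteins, had 5.64, 1.83 and 7.91 TPM on the left at day 2.5. On the right it was listed at 0 in embryo 12 and had 2.59 and 1.10 TPM in the others, against 1.00 to 6.10 TPM in NICD1 24 h. For ESYT3 and TTYH3 the stages thus overlapped on the right. BMF also overlapped, with 12.7, 22.6 and 26.3 TPM in right NICD1 6 h otocysts and 8.43, 18.6 and 32.1 TPM in NICD1 24 h. For FHDC1 the NICD1 6 h range of 12.1 to 17.0 TPM overlapped the 4.40 to 12.7 TPM of NICD1 24 h. ADRA2A had 5.55 to 10.3 TPM in NICD1 6 h and 3.43 to 6.84 TPM in NICD1 24 h, which overlapped. SLC6A6 overlapped too, with 11.1 to 16.7 TPM and 5.62 to 14.0 TPM. Mean levels in NICD1 24 h were lower than in NICD1 6 h for BMF, FHDC1, ADRA2A and SLC6A6 and higher for ESYT3 and TTYH3.

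The identifiers without a name that had the smallest p for a fall on the right were ENSGALT00000001806.5 and ENSGALT00000043077.3, neither of which shared reads. The former had 6.33, 7.40 and 11.8 TPM in NICD1 6 h, 2.10, 1.79 and 3.45 TPM in NICD1 24 h and 3.37, 3.79 and 2.24 TPM in mRFP1 24 h. All 6 day 3 values lay under the earlier ones, and the log2 fold change to NICD1 24 h was -1.75 ± 0.38 (SE; edgeR adjusted p = 0.730). DESeq2 called it, with an adjusted p of 0.0029, where the other alternatives reached up to 1. The latter had 2.90, 3.92 and 4.21 TPM in NICD1 6 h and 0.508, 0.904 and 0.982 TPM in NICD1 24 h. Its log2 fold change was -2.16 ± 0.52 (SE; edgeR adjusted p = 0.896, and 0.0449 by DESeq2, with up to 1 in the other alternatives). It rose between the inhibitor cultures, by 1.66 ± 0.49 (SE, log2; edgeR adjusted p = 0.0278), a call lost without embryo 1, 3, 5, 32 or 33 (adjusted p from 0.056 to 0.128).

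In culture the members did not move as 1 group. In DMSO the mean level after 6 h was above B in 34 members, between A and B in 47 and below A in 19. After 24 h it was above B in 22, between A and B in 32 and below A in 46, where the rule itself removed values under 0.5 times A. The mean was lower after 24 h than after 6 h in 60 of 100 members, and the fitted fold change was negative for 56, against 51.6% of all transcripts, with a median of -0.27 against -0.03 on the log2 scale. These values involve the DMSO 24 h libraries of the rule and carry no test. The cultures come from other embryos and another experiment than the in ovo otocysts, so stage, culture and experiment cannot be told apart.

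The same step in the right cultures used no library of the rule. Its 24 h otocysts do share embryos with the DMSO 24 h libraries of the rule. Between 6 h and 24 h of LY411575, 21 members fell and 6 rose (edgeR, adjusted p below 0.05), against 10.7% and 12.2% of all transcripts tested. The median log2 fold change was -0.61 against -0.11, and the fold change was negative for 68 of 100 members against 53.8% of all transcripts. The groups were lower without overlap in 38 members, against 34.9% of all transcripts, and higher without overlap in 6, against 15.9%. Leaving out single otocysts gave 13 to 18 falls, with 13 without embryo 1 and 14 without embryo 32, 33 or 34. It gave 2 to 6 rises, with 2 without embryo 5 and 3 without embryo 1, 3 or 32. Over all transcripts these fits called 6.3% to 10.4% lower and 6.95% to 10.4% higher, so calls became fewer there too. Of the 21 that fell, 20 also had a lower mean in DMSO at 24 h than at 6 h, and 17 had a DMSO 6 h mean above B. All 6 that rose had a DMSO 24 h mean above both B and the DMSO 6 h mean. B and the DMSO 24 h mean are values of the rule, and the DMSO otocysts share embryos with the LY411575 ones. The shares over all transcripts called were not counted, so these counts are a description only. Detected transcripts numbered 19917 and 19055 in the inhibitor otocysts of embryos 32 and 34, the fewest of the 30 libraries. The summed level of the otic epithelium list was 1044 to 1269 TPM after 6 h and 238 to 438 TPM after 24 h of LY411575, and 951 to 1165 and 281 to 429 TPM in DMSO. The mesenchyme list had 418 to 500 TPM and 182 to 213 TPM in LY411575. The part of these differences in the results was not tested.

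**Figure D3:**
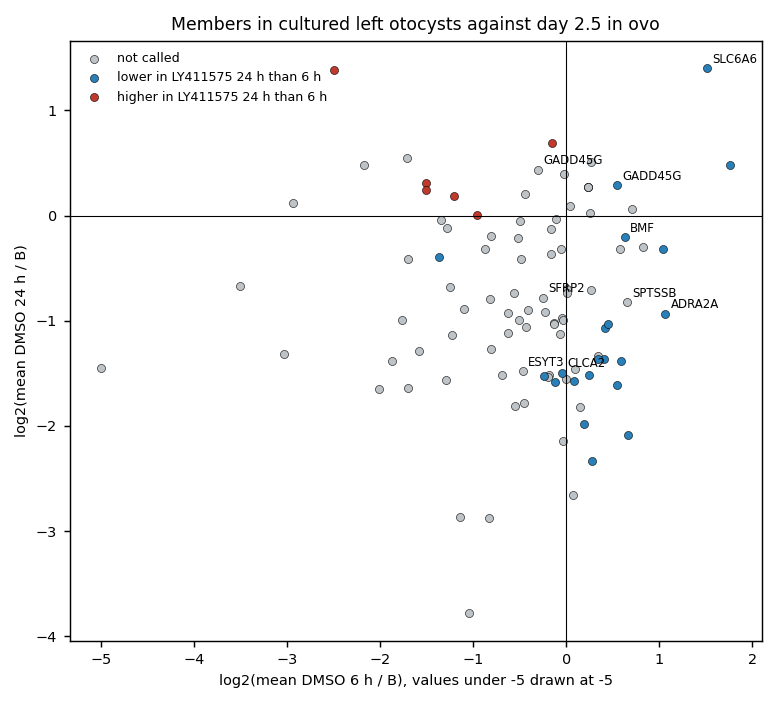
Each point is 1 of the 100 members; the horizontal axis is log2 of the mean DMSO 6 h level over B and the vertical axis log2 of the mean DMSO 24 h level over B. Blue points are the 21 members that fell and red points the 6 that rose between 6 h and 24 h of LY411575. Of the 21 blue points 17 lie to the right of 0, and all 6 red points lie above 0 on the vertical axis. Both axes use values of the rule, so these positions are a description only.

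Of the 21 members that fell between the inhibitor cultures, 6 have names. ADRA2A, the alpha-2A adrenergic receptor, had 22.5, 37.8 and 24.9 TPM in DMSO 6 h and 35.4, 48.1 and 35.7 TPM in LY411575 6 h, all above the 8.83 to 21.7 TPM of left otocysts at day 2.5. At 24 h it had 5.04, 8.75 and 7.58 TPM in DMSO and 3.46, 3.80 and 11.5 TPM in LY411575. The fall between the inhibitor cultures was -2.40 ± 0.50 on the log2 scale (SE; edgeR adjusted p = 0.00455) and was called in all 13 alternatives. CLCA2 had 128, 126 and 122 TPM in DMSO 6 h and 46.5, 52.9 and 38.5 TPM in DMSO 24 h. In LY411575 it had 114, 150.4 and 148 TPM at 6 h and 13.1, 23.9 and 33.2 TPM at 24 h, a log2 fold change of -2.26 ± 0.28 (SE; edgeR adjusted p = 0.000201) that was also called in all 13 alternatives. ADAMTSL1 fell by 2.12 ± 0.59 (SE, log2; edgeR adjusted p = 0.0214). Its levels were 21.7, 11.5 and 21.3 TPM after 6 h and 3.51, 4.56 and 1.90 TPM after 24 h of LY411575. The call was lost without embryo 1, 5, 32 or 34, with adjusted p from 0.0559 to 0.079. GADD45G, by the transcript ENSGALT00000094271.1, fell by 1.43 ± 0.46 (SE, log2; edgeR adjusted p = 0.0407), and its call was lost without embryo 1, 5, 33 or 34 and when only these 6 libraries were fitted, with adjusted p from 0.065 to 0.152.

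SLC6A6 and BMF had higher mean levels in DMSO 6 h than in left otocysts of day 2.5. SLC6A6, the taurine transporter, had 21.2, 13.0 and 26.9 TPM in left otocysts of day 2.5 and 7.36 to 13.9 TPM at day 3, but 55.9, 54.3 and 64.1 TPM in DMSO 6 h and 51.1, 45.2 and 65.4 TPM in DMSO 24 h. All 6 DMSO otocysts were above all 9 left in ovo otocysts. In LY411575 it had 64.0, 72.5 and 97.6 TPM at 6 h and 17.6, 34.7 and 25.8 TPM at 24 h, a log2 fold change of -1.28 ± 0.32 (SE; edgeR adjusted p = 0.0133) whose call was lost without embryo 32 (0.0624, the highest over 13 alternatives, with 0.00123 the lowest). BMF, a pro-apoptotic protein, had 23.0, 29.7 and 48.3 TPM in left otocysts of day 2.5, 64.4, 40.1 and 51.3 TPM in DMSO 6 h and 23.9, 22.4 and 41.3 TPM in DMSO 24 h. With LY411575 it had 70.2, 55.1 and 77.7 TPM at 6 h and 17.1, 10.4 and 17.0 TPM at 24 h (log2 fold change -1.87 ± 0.59, SE; edgeR adjusted p = 0.0379). The call of BMF was lost whenever 1 of these 6 otocysts was left out, with adjusted p up to 0.111.

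The last question was whether the members respond to LY411575 within pairs of otocysts. After 6 h 1 member rose and 0 fell (edgeR with 1 term per embryo, adjusted p below 0.05), against 0.0416% and 0.037% of 21637 transcripts. This fit took its spread from all 30 libraries, among them the left ones that chose the members. Its p-values and calls at 6 h are thus not free of the choice. At an unadjusted p below 0.05, 3 were higher, against 1.26%, and 1 was lower, against 1.41%. The groups did not overlap for 5 members higher with LY411575, against 6.19%, and for 4 lower, against 5.11%. The fold change was negative for 38 of 100 members, against 50.2% of all transcripts, and the median was 0.14 on the log2 scale, against 0.00 over all transcripts. After 24 h 1 member had an adjusted p below 0.05 and was lower and 0 were higher, against 1.85% and 1.55%. At an unadjusted p below 0.05, 9 were lower, against 10.3%, and 2 were higher, against 7.36%. The groups did not overlap for 17 members lower with LY411575, against 10.5%, and for 1 higher, against 4.79%. The fold change was negative for 57 of 100 members, against 51.8%, and the median was -0.16 against -0.03. The mesenchyme list had 225 to 266 TPM in DMSO and 182 to 213 TPM in LY411575 at 24 h, and its part in the result was not tested. The mean DMSO 24 h level was a condition of the rule, so the 24 h values and the differences between the times are a description here, and their p-values are no independent test of the members. For the difference between the times 1 member had an adjusted p below 0.05, lower at 24 h, against 0.0786% of all transcripts, and for 0 in the other direction, against 0.0324%.

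The member that rose was GADD45G, ENSGALT00000094271.1. After 6 h its level was 42.1, 18.2 and 63.9 TPM in DMSO and 109, 56.4 and 161 TPM in LY411575 of the same embryos, so that every inhibitor otocyst was far above its partner although the groups overlap. The log2 fold change was 1.44 ± 0.14 (SE; edgeR adjusted p = 0.000758), and it was called in each fit that left out 1 embryo (adjusted p from 1.57e-22 to 1 over 10 alternatives). Without the replicate block the adjusted p was 1, and when only its own set of 6 libraries was fitted 0.133, at log2 fold changes of 1.40 and 1.43. After 24 h the levels were 45.9, 39.0 and 19.3 TPM in DMSO and 44.7, 39.5 and 13.5 TPM in LY411575. They were lower with LY411575 in 2 of 3 embryos. The difference between the times was -1.50 ± 0.20 (SE; edgeR adjusted p = 0.0147). It rests in part on the DMSO 24 h libraries of the rule, where the mean was 34.7 TPM and A 16.1 TPM. That call was lost in 5 of 13 alternatives: without embryo 1, 3 or 5, with adjusted p from 0.0649 to 0.0946, when only the sets compared were fitted, where it was 0.244, and without the replicate block, where it was 0.637.

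The other GADD45G transcript moved alongside. ENSGALT00000045592.3 had 129, 52.6 and 179 TPM in DMSO 6 h against 287, 141 and 397 TPM in LY411575 6 h, higher in 3 of 3 embryos. Its log2 fold change of 1.23 ± 0.21 (SE) had an adjusted p of 0.0730 (edgeR), between 7.98e-06 and 1 over the alternatives, and passed with DESeq2, limma-voom or the length trend removed. At 24 h the levels were 285, 218 and 101 TPM against 234, 139.9 and 116 TPM, lower in 2 of 3 embryos.

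SLC6A6 was the member with an adjusted p below 0.05 after 24 h. Its DMSO 24 h mean of 53.9 TPM was one that the rule required to exceed 0.5 times its A of 11.6 TPM. It was lower with LY411575 in 3 of 3 embryos, by the values above, with a log2 fold change of -0.97 ± 0.24 (SE; edgeR adjusted p = 0.0441). The call was lost without embryo 32 or 34 (adjusted p of 0.273 and 0.174, over a range of 0.00106 to 0.65 in the alternatives), without the replicate block (0.112) and when only its own set was fitted (0.65). After 6 h it was higher in 3 of 3 embryos and did not pass. CLCA2 was likewise lower in 3 of 3 embryos at 24 h, at -0.95 ± 0.24 (SE; edgeR adjusted p = 0.0545), and it passed without embryo 34 (adjusted p of 0.0112) and with DESeq2 and limma-voom (range over alternatives 0.00163 to 0.655). BMF was higher in 3 of 3 embryos at 6 h and lower in 3 of 3 at 24 h, and neither passed (edgeR adjusted p = 1 and 0.233).

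Further members had the same sign in all pairs without passing. SPTSSB was higher in all 6 embryos, with 31.2, 17.4 and 37.8 TPM in DMSO against 61.1, 37.8 and 92.4 TPM in LY411575 at 6 h and 20.5, 7.47 and 3.22 TPM against 38.0, 8.93 and 27.6 TPM at 24 h. It passed at neither time. SFRP2 was lower in all 6 embryos, with 157, 142 and 156 TPM against 119, 111 and 127 TPM at 6 h and 126, 103 and 84.7 TPM against 76.8, 83.5 and 79.6 TPM at 24 h. The LY411575 and DMSO otocysts did not overlap at either time for SFRP2, and neither comparison passed. ADAMTSL1 was higher in 3 of 3 embryos at 6 h, with 8.87, 6.75 and 11.5 TPM in DMSO against 21.7, 11.5 and 21.3 TPM (log2 fold change 0.98 ± 0.32, SE; edgeR adjusted p = 1). FSTL4, FHDC1 and ADRA2A were also higher in 3 of 3 embryos at 6 h, and ESYT3 was lower in 3 of 3. The share of all transcripts with 1 sign in all pairs was not counted. These signs, here and above, are thus a description only.

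**Figure D4:**
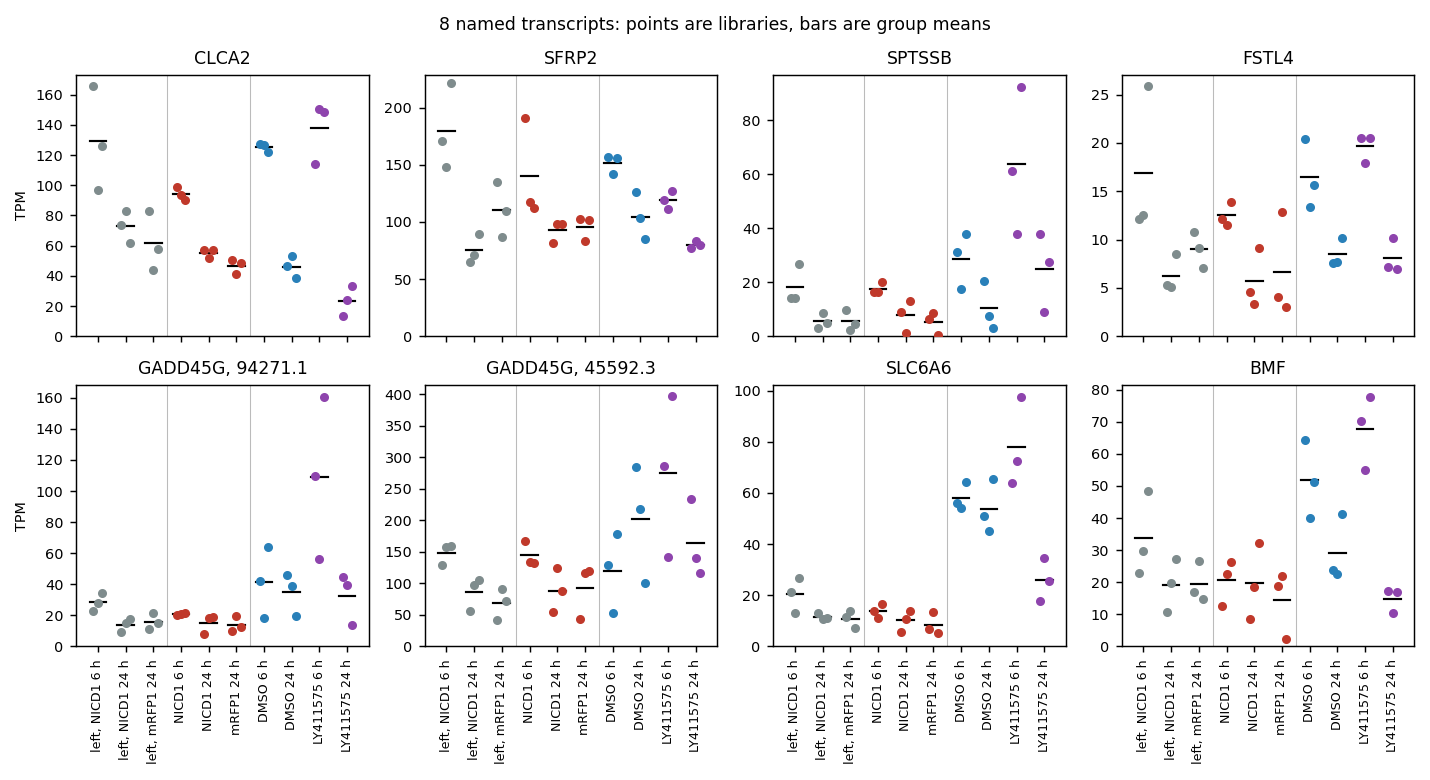
TPM of 8 named transcripts in 10 groups; each point is 1 otocyst and each bar a mean of 3 otocysts, with left in ovo otocysts in grey, right in ovo in red, DMSO in blue and LY411575 in purple. CLCA2 separates the stages on both sides, both GADD45G transcripts have their highest group mean in LY411575 6 h, and SLC6A6 in DMSO is above all in ovo otocysts at both times.

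The unnamed members with the smallest p among those higher after 6 h of LY411575 were ENSGALT00000105176.1 and ENSGALT00000000503.6. The former was listed at 0 in 2 of 3 DMSO otocysts and had 1.84 to 2.97 TPM with LY411575, higher in 2 of 3 embryos, and did not pass. The latter had 6.28, 5.38 and 8.49 TPM in DMSO and 10.1, 7.32 and 11.4 TPM in LY411575, higher in 3 of 3 embryos, and did not pass. It differs from most members in culture: at 24 h it had 11.3, 22.0 and 19.4 TPM in DMSO and 18.1, 36.8 and 28.3 TPM in LY411575, and it rose between the inhibitor cultures by 1.81 ± 0.39 on the log2 scale (SE; edgeR adjusted p = 0.00586). Its left levels in ovo were 9.95, 9.12 and 27.5 TPM at day 2.5 and 2.79 to 5.19 TPM at day 3.

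The members were set beside related genes with names. None of the 13 members with a name is on the lists of DNA replication and cell division, of glycolysis and hypoxia, of immediate early and stress genes, or of early embryonic and FGF genes. The lists were drawn up with earlier results known and most members have no name, so this absence does not describe the members. GADD45G, though also a stress response gene, was placed on the neurogenesis list and not on the stress list. The otic neurogenesis list, which holds GADD45G, had 12 transcripts tested. After 6 h of LY411575 10 of them were higher, where 50.2% of all transcripts were lower. The rise passed for 2, against 0.0416% of all transcripts. These were GADD45G and the Notch ligand DLL1 (log2 fold change 1.604, edgeR adjusted p = 0.0246). The list's median was 0.64 against 0.00 over all transcripts. After 24 h 2 rose, against 1.55% of all transcripts. They were both transcripts of EBF3, a transcription factor of differentiating neurons, and GADD45G was not among them. On the right side in ovo, 4 of the 12 were lower from NICD1 6 h to NICD1 24 h, against 48.8% of all transcripts. In that comparison 0 were called (edgeR, with 0% of all transcripts). The list holds genes that the study called on these otocysts, so its counts are not independent evidence.

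The Wnt list, which holds SFRP2, had 18 transcripts tested. Only 6 of them were lower from NICD1 6 h to NICD1 24 h in the right otocysts, against 48.8% of all transcripts. Their median log2 fold change was 0.35 against 0.01 over all transcripts, and 0 were called (edgeR). SFRP2 was thus among the minority. Between the inhibitor cultures 6 fell, among them the receptors FZD4 and FZD9 and the target gene AXIN2, and 1 rose, the receptor FZD3. Over all transcripts 10.7% fell and 12.2% rose in this comparison. SFRP2 was not called there. Of the Notch list, with 11 transcripts tested and 0 members, 2 fell after 6 h of LY411575, HES5 and HES4, and 1 rose, DLL1. Over all transcripts 0.037% fell and 0.0416% rose.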

How the data were processed

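Total RNA of each single otocyst was amplified with a SMART-Seq v4 kit, which does not mark strand, and sequenced in pairs. Tools named in the submitters' processing notes are bcl2fastq and kallisto, with the build GRCg6a. The authors deposited 1 kallisto table per otocyst with estimated counts, shared out between compatible transcripts, and TPM, which the authors' software scaled for effective length and library size. TPM served for the rule and for levels. Transcript lengths are those of the deposited tables.

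The members and gene lists were chosen with earlier results of these data known. Names come from the identifier and symbol pairs in the study's tables of differentially expressed genes (846 transcripts). The table of RefSeq genes at hand is of another build and was not used. Members named are those with a symbol or homologue, the 2 unnamed with the smallest p for a fall from NICD1 6 h to NICD1 24 h, and the 2 with the smallest p for a rise after 6 h of LY411575.

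Estimated counts were rounded, filtered with filterByExpr (minimum count 10), scaled by TMM and fitted with edgeR 4.0.16 (R 4.3.3), in a fit of the 15 right libraries by group (20326 transcripts, 10 residual degrees of freedom) and one of all 30 libraries with a term per embryo (21637 transcripts, 10 residual degrees of freedom). P-values were Benjamini-Hochberg adjusted over all transcripts of a comparison. An SE is the log2 fold change over the root of its F statistic. The p-values measure variation between embryos, with the spread pooled over all groups or sets of a fit and shrunk across transcripts. It was not estimated from the 3 embryos of a group alone.

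The embryo is a term because both otocysts of a pair come from 1 embryo, as the sample titles show by number and side. Left and right deviations from the group means had correlations of 0.062 to 0.538 across transcripts.

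Alternatives were DESeq2 1.42.0, limma-voom (limma 3.58.1), median-of-ratios size factors, no filter, the trend with length removed, fewer or more libraries in the fit, no replicate block and leaving out single otocysts or embryos. For the rule they were pseudocounts of 0.5 and 5 TPM, no condition on DMSO, lowest against highest libraries, and each library left out. The mean of both day 3 right groups against NICD1 6 h was chosen after seeing the data. The steps were tested on simulated data whose dispersion (spread between libraries) was set lower than in these data. The fits of 15 and 30 libraries estimated it at 0.366 and 0.240. That test thus does not show how many changes could be found here.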

Additional observations from a re-analysis of the deposited data

Results flagged for a closer look

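The response of GADD45G (ENSGALT00000094271.1) to LY411575 differed between 24 h and 6 h by a test of the difference, at -1.50 on the log2 scale (adjusted p = 0.0147, edgeR), with 3 of 3 embryos higher at 6 h and 2 of 3 lower at 24 h. For SLC6A6 the 3 embryos at 6 h were higher with LY411575 and the 3 at 24 h lower, a difference of -1.37 on the log2 scale (adjusted p = 0.145, edgeR). BMF showed the same opposite signs, with a difference of -1.22 (adjusted p = 0.395, edgeR). The last 2 differences did not pass the test. All 3 differences contain the DMSO 24 h libraries, whose mean was a condition of the rule, and are no independent test. Groups of 3 otocysts are too small for a check of single outlying samples.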

How the results depend on the processing

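The fold changes followed through the alternatives kept their sign in each. They cover chosen comparisons of ADAMTSL1, FSTL4, CLCA2, GADD45G, SLC6A6, BMF, ADRA2A, SFRP2 and some unnamed members. SPTSSB, ESYT3, TTYH3 and FHDC1 were not followed there. For NICD1 against mRFP1 the number of members with a negative fold change, 55, fell to 46 when only the groups compared were fitted. It fell to as few as 40 with 1 otocyst left out. From NICD1 6 h to NICD1 24 h DESeq2 called 2 members lower (0.174% of all transcripts) and edgeR 0. After 6 h of LY411575 DESeq2, limma-voom and the length trend removed called 2 members each (higher among all transcripts: 0.25%, 0.0693% and 0.0416%), and the fit of the sets compared alone and the fit with no replicate block called 0. After 24 h DESeq2 called 9 members, against 6.87% of all transcripts lower and 5.44% higher, limma-voom 3, against 1.3% and 2.39%, and the sets alone and no replicate block 0. For the difference between the times DESeq2 called 6, against 2.15% lower and 1.76% higher, and the sets alone and no replicate block 0. The causes were not tested.

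With single otocysts or embryos left out, calls stayed at 0 in both stage comparisons and for NICD1 against mRFP1, and lay between 13 and 18 lower and 2 and 6 higher between the inhibitor cultures, at 1 after 6 h of LY411575, between 0 and 2 after 24 h and between 0 and 3 for the difference. Over all transcripts the shares were 6.3% to 10.4% lower and 6.95% to 10.4% higher between the inhibitor cultures. For LY411575 they were 0.018% to 0.0269% lower and 0.0225% to 0.0315% higher at 6 h. At 24 h they were 0.387% to 4.98% lower and 0.09% to 3.04% higher. For the difference they were 0.0269% to 1.77% lower and 0.00899% to 0.829% higher. Members with a negative fold change numbered 75 to 86, 71 to 82, 68 to 71 and 40 to 65 in the right comparisons (NICD1 24 h, mRFP1 24 h, LY411575 24 h, NICD1 against mRFP1) and 34 to 44, 56 to 67 and 58 to 68 for LY411575 at 6 h, at 24 h and for the difference. After 24 h 0 members were called without embryo 32 and 2 without embryo 33 or 34; SLC6A6 was called without embryo 33 and not without 32 or 34.

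Choosing the members with no condition on DMSO kept 64 of the 100, the lowest library of B against the highest of A kept 18, and leaving out single libraries kept 58 to 94. With both day 3 right groups against NICD1 6 h, a comparison chosen after seeing the data, 0 members were called (edgeR) and 14 were lower at an unadjusted p below 0.05, against 2.15% of all transcripts.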
